A study of Danio rerio with 9 samples.

Results

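The collagen genes of single zebrafish embryos (Danio rerio) were followed in RNA sequencing data at about 25 hours post fertilization. Members were all rows whose symbol begins with col or COL, a type number, the letter a and a chain number. Of 22337 genes in the table, 58 rows matched. A pair of them, col4a3bpa and COL4A3BP (2 of 2), are named for a ceramide transfer protein that was found through its binding to a collagen IV chain. Those rows are no collagens and were set apart, which left 56 collagen genes of 23 types, 43 with lower-case and 13 with upper-case symbols. A suffix such as (2 of 2) is part of the symbol in the deposited table.

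All 9 embryos came from matings between parents that each carried zic2aGBT133/+ and zic2bUW1127/+, raised at 29 °C without treatment. The 4 normal embryos (numbers 3, 4, 6 and 7) and the 5 embryos with coloboma (numbers 3, 4, 5, 6 and 7), an unclosed cleft in the eye, were sorted by eye phenotype. The labels do not say which embryos share a pair of parents. The labels give the cross and no stated genotype of any single embryo, so each group may hold several genotypes. In the sample descriptions the normal embryos carry the tag WT and the coloboma embryos the tag COL. The meaning of WT is not explained there. Each embryo was one library of whole-embryo RNA, and the comparison asked which transcripts differ between embryos with and without the eye defect.

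Collagens are secreted proteins in which chains with a glycine at every turn wind into a triple helix. Fibrillar collagens pack into the fibrils of skin, cartilage, bone and the notochord sheath, collagen IV forms the sheet of basement membranes, and FACIT collagens sit on fibrils through interrupted helices. In the early zebrafish embryo the notochord, the epidermis and the muscle boundaries are well-known collagen sources. The choroid fissure of the eye closes where basement membranes on either side meet, are opened and are rejoined.

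Total counts ran from 20461180 in coloboma embryo 5 to 59233104 in coloboma embryo 6. The filter on low counts kept 55 of the 56 collagen genes, and col15a1a, with 60 counts in all embryos together, was not tested. The targeted genes zic2a and zic2b had log2 differences (coloboma minus normal) of 0.11 ± 0.11 and -0.03 ± 0.08 (SE), and summed reads cannot separate intact from disrupted transcripts. Coloboma embryo 3 stood apart in its lens genes, with a median level 4.46 below the normal mean on the log2 scale (-4.46), while the other 4 coloboma embryos lay between 0.30 and 0.79.

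Collagen transcripts were a small part of these libraries, and few genes carried most of them. Per-length levels are given as TPM, a unit scaled by transcript length and library. Means are given ± SD over the 4 normal and the 5 coloboma embryos, normal first, and log2 differences, coloboma minus normal, ± SE. Collagens took 0.318% ± 0.0495 and 0.376% ± 0.0802 of all TPM. Single embryos reached 0.253, 0.332, 0.372 and 0.316% (normal 3, 4, 6 and 7) and 0.462, 0.380, 0.245, 0.408 and 0.387% (coloboma 3 to 7). Coloboma 3, 4, 6 and 7 exceeded every normal embryo, while coloboma 5 lay below them all, so that the ranges overlapped through coloboma 5 alone. In a whole embryo, fewer cells that make a transcript and less of it per cell cannot be told apart.

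Only 10 of the 56 genes averaged at least 100 TPM over the 9 embryos, 23 lay between 10 and 100, 17 between 1 and 10, and 6 below 1. The most abundant was col1a1a, a chain of the fibrillar collagen of skin and bone, at 471 ± 103 and 589 ± 146 TPM. Next came col2a1a, the main collagen of the notochord sheath and of cartilage, at 318 ± 99.5 and 452 ± 149 TPM. The following ranks went to col9a1, col1a2, col1a1b, col11a1a, COL28A1 (2 of 4), col4a5, col9a2 and col18a1. These 10 genes held 67.9% ± 1.62 and 69.4% ± 1.97 of the collagen TPM.

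**Figure D1:**
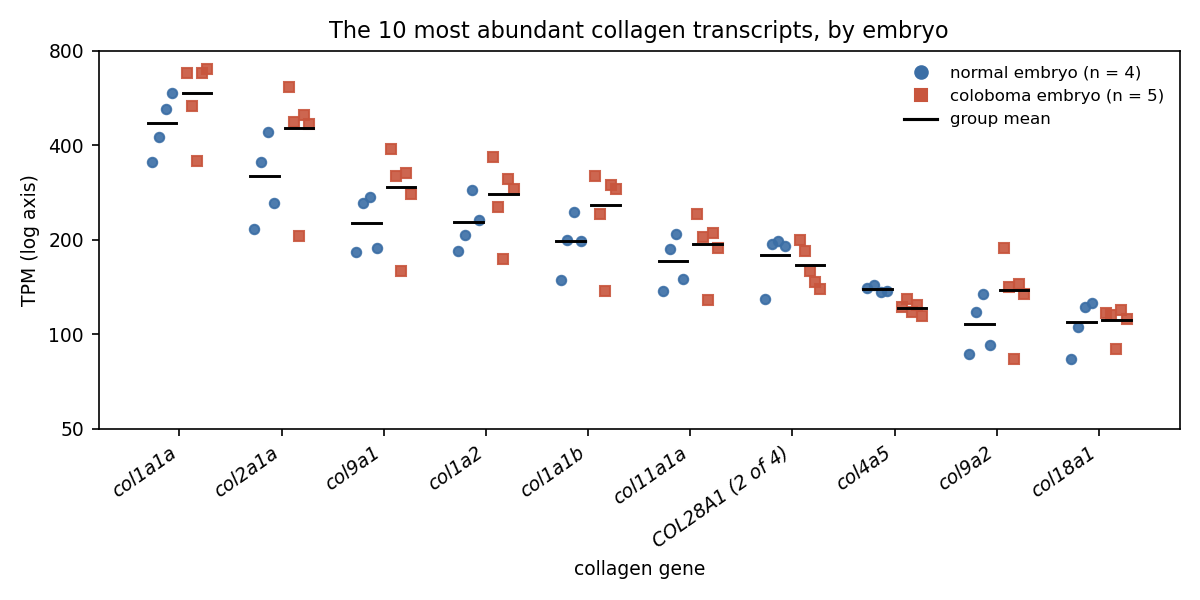
TPM (log axis) of the 10 most abundant collagen genes in each of 4 normal (circles) and 5 coloboma embryos (squares), with the group mean as a line. Within each fibrillar or FACIT gene shown, coloboma embryo 5 is the lowest red point, for example 206 TPM for col2a1a, where coloboma 3 reached 612.

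No collagen gene passed the test between the groups. Of the 55 tested, 0 were higher and 0 lower at the 0.05 threshold of edgeR, with p-values adjusted over 21293 genes. Among all genes tested 0.207% were called, 0.0798% as higher and 0.127% as lower. At an unadjusted p under 0.05, 8 collagen genes (14.5%) were higher and 1 (1.82%) lower in coloboma embryos, beside 6.78% and 4.90% of all genes. DESeq2 called 3 collagen genes, col4a1, col4a2 and col6a3, as higher (adjusted p = 0.00266, 0.00832 and 0.00466), and called 1.75% of all genes as higher. limma voom called 0. In simulated counts the edgeR fit called only 4% of genes changed by 0.5 on the log2 scale. Over all genes, differences of that size would thus mostly be missed. The changed genes were drawn at random from all genes tested, and the share for collagens alone was not measured.

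The log2 differences were nevertheless mostly positive. Of the 55 genes 44 (80.0%) had a positive value, against 50.1% of all genes tested. Their median was 0.24, against 0.00 for all genes, with a range from -1.08 to 0.75. In 4 genes (7.27%) every coloboma embryo lay above every normal embryo in CPM (counts scaled to the library's size), and in 0 every coloboma embryo lay below. Among all genes tested these shares were 2.27% and 2.16%. Members are not independent replicates, so these counts describe the family and test nothing.

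**Figure D2:**
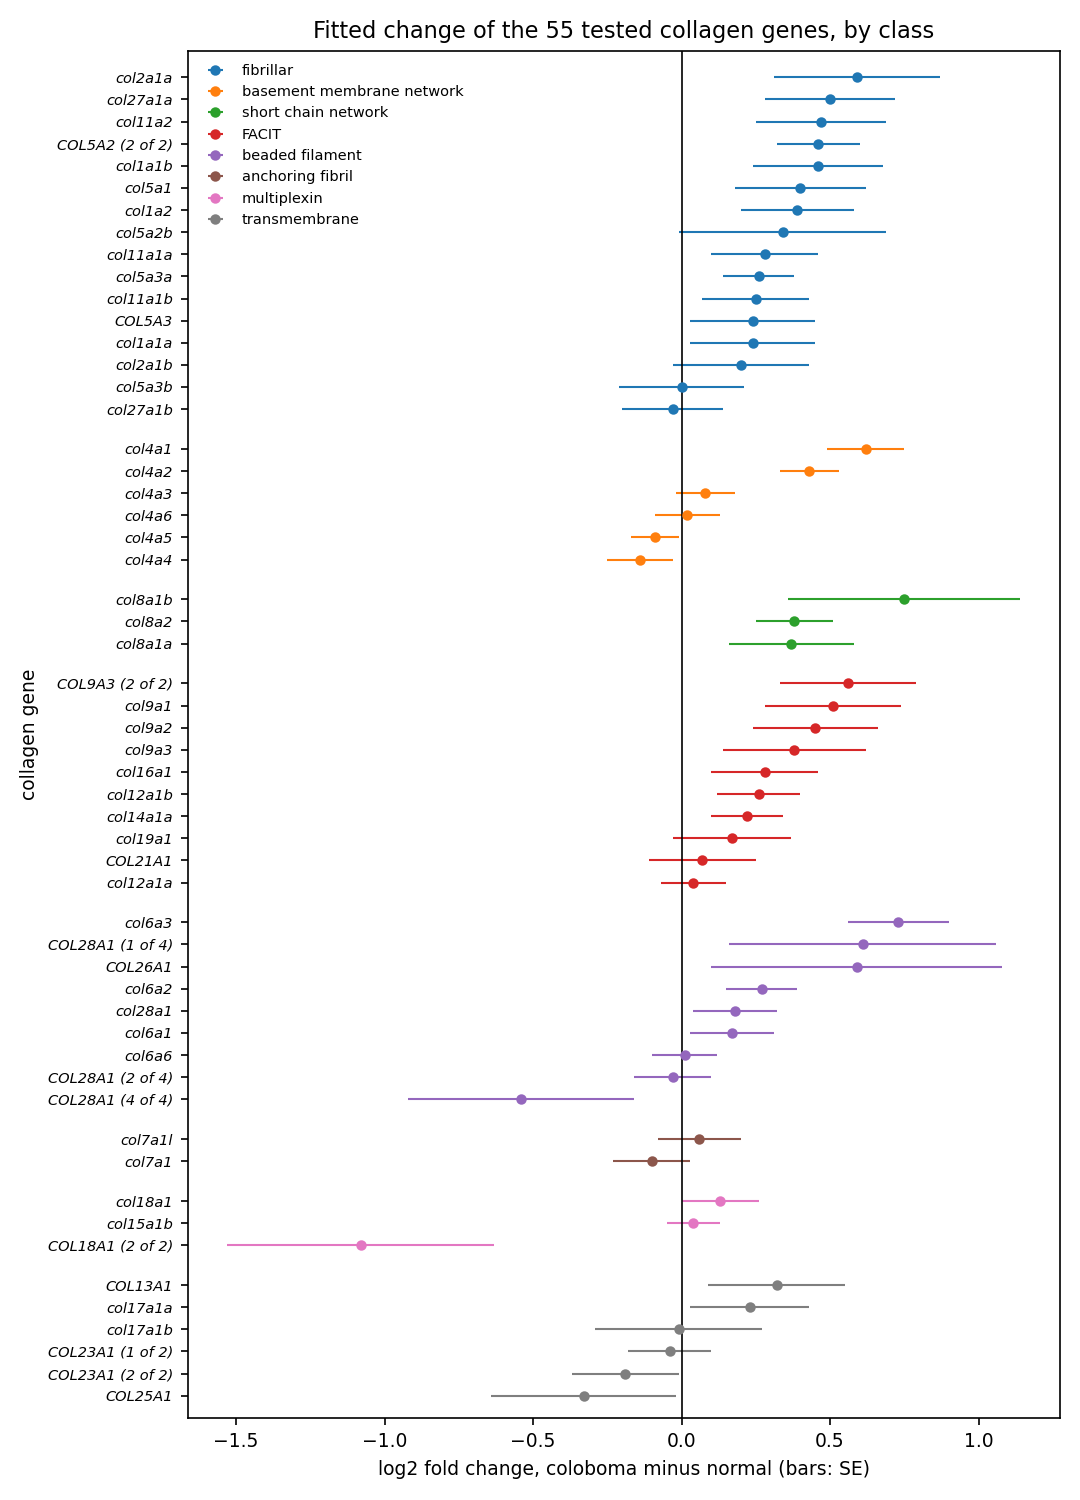
Fitted log2 difference, coloboma minus normal, with its SE for the 55 tested collagen genes, grouped and coloured by class. Points right of the line are higher in coloboma embryos. The smallest p among these genes belong to col4a1 (0.62 ± 0.13), col4a2 (0.43 ± 0.10) and col6a3 (0.73 ± 0.17).

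The collagen IV genes, which encode the network of every basement membrane, split by chain pair. The chains of col4a1 and col4a2 combine into the form found in nearly all basement membranes, and mutations of the human genes cause vessel and eye disease. For col4a1 the levels were 30.5, 39.5, 36.9 and 40.7 CPM in normal embryos 3, 4, 6 and 7 and 67.8, 61.8, 43.4, 59.0 and 50.6 CPM in coloboma embryos 3 to 7. The groups did not overlap, and the nearest embryos were normal 7 and coloboma 5. The log2 difference was 0.62 ± 0.13 (SE), or 1.53-fold, with an edgeR adjusted p of 0.122.

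For col4a2 the normal embryos measured 42.4, 54.4, 47.5 and 52.0 CPM and the coloboma embryos 73.6, 71.0, 56.0, 67.0 and 63.1 CPM. Again no coloboma embryo fell into the normal range, and coloboma 5 came closest. The log2 difference of 0.43 ± 0.10 (SE) had an edgeR adjusted p of 0.143. Both genes passed when coloboma embryo 5 was left out (adjusted p = 0.0283 and 0.0426), a setting in which 0.776% of all genes were called higher. No other single omission brought either gene past the threshold. Without normal 3 or normal 6 the edgeR adjusted p rose to 0.330 and 0.324 for col4a1 and to 0.391 and 0.383 for col4a2. Over single omissions the log2 differences ran from 0.53 to 0.70 and from 0.37 to 0.48.

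The other collagen IV genes gave values near 0. The chain of col4a5, which zebrafish need for the layered targeting of retinal axons in the tectum, was the most abundant of the class, with 541 to 589.8 CPM in normal and 490.3 to 575 CPM in coloboma embryos. Its log2 difference was -0.09 ± 0.08 (SE; edgeR adjusted p = 0.734). In TPM, where the share of all genes without overlap was not counted, col4a5 did not overlap between the groups. Its values ran from 136 to 143 in normal and from 114 to 129.6 in coloboma embryos. On that scale its difference was -0.19 (log2(TPM + 1), limma adjusted p = 0.306), and the median of all genes lay at -0.06. Its partner col4a6 was at 0.02 ± 0.11, col4a3 at 0.08 ± 0.10 and col4a4 at -0.14 ± 0.11 (log2, SE).

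The balance between these chain pairs was read as a ratio. The summed TPM of col4a1 and col4a2, divided by that of col4a5 and col4a6, was 0.0823, 0.102, 0.0981 and 0.105 in the normal and 0.160, 0.159, 0.132, 0.152 and 0.146 in the coloboma embryos. These ranges did not overlap. A ratio within an embryo shows an unequal difference between the pairs and not which of them differs. Within a pair the ratio of col4a1 to col4a2 was 1.11 ± 0.0255 and 1.22 ± 0.0740. It ran from 1.08 to 1.13 in normal and from 1.15 to 1.32 in coloboma embryos, also without overlap. The ratios were picked after the values were seen and were not tested. The 3 pairs each lie side by side on one chromosome in the RefSeq annotation, with 1 gene, a long noncoding RNA, between the partners.

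Collagen VI forms beaded microfibrils around muscle fibres and other cells, and human mutations in its chains cause muscle disease. The gene of its long chain, col6a3, measured 54.9, 94.9, 64.2 and 74.2 CPM in the normal and 155, 132, 99.7, 109 and 103 CPM in the coloboma embryos. All coloboma embryos were above all normal ones, although normal 4 and coloboma 5 were close. The log2 difference was 0.73 ± 0.17 (SE), or 1.66-fold (edgeR adjusted p = 0.143). The chains that assemble with it showed smaller values, 0.17 ± 0.14 for col6a1 and 0.27 ± 0.12 for col6a2 (edgeR adjusted p = 0.697 and 0.441), and their groups overlapped. Without coloboma 3 the col6a2 value was 0.16. The TPM ratio of col6a3 to col6a1 ran from 0.546 to 0.922 in normal and from 1.13 to 1.44 in coloboma embryos. A further chain gene of the type, col6a6, lay at 0.01 ± 0.11.

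**Figure D3:**
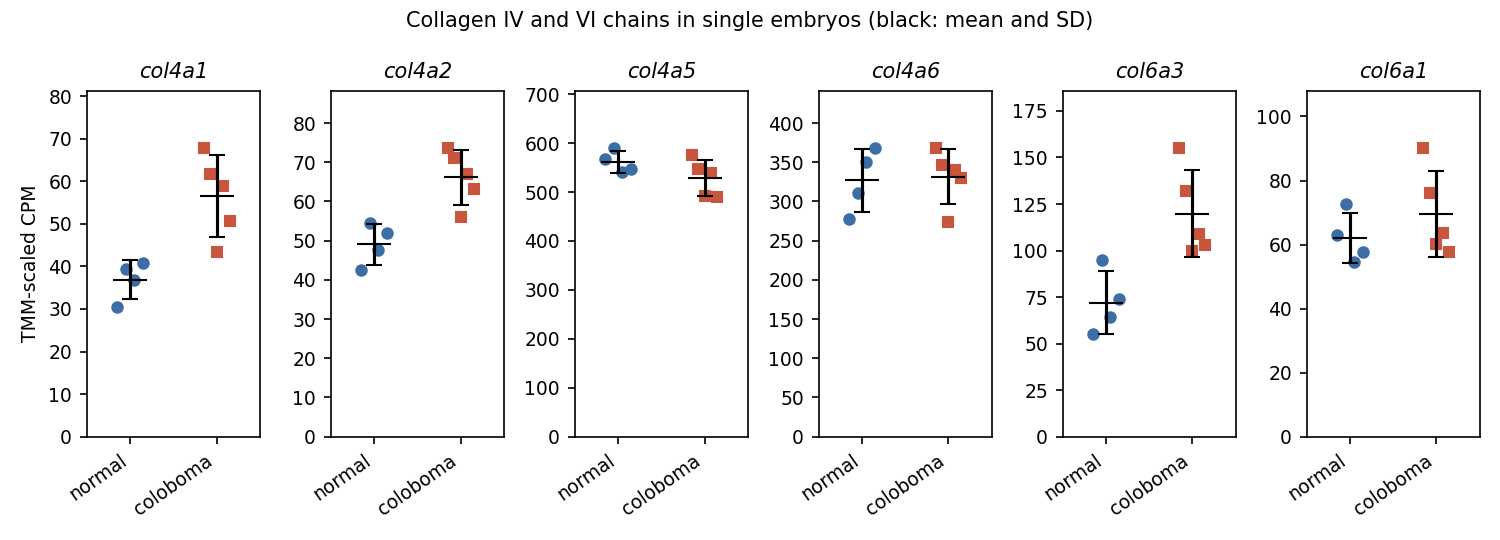
TMM-scaled CPM of 4 collagen IV and 2 collagen VI genes in each embryo, with mean and SD in black and axes from 0. The groups are separate for col4a1, col4a2 and col6a3, and overlap for col4a5, col4a6 and col6a1.

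These 3 genes with the smallest p among the collagens share a chromosome with zic2a. By symbol or synonym 45 of the 56 genes could be placed in RefSeq assembly GRCz12tu, and 5 were on chromosome 9, where zic2a lies. They were col4a1, col4a2, col6a3, col8a1a and col18a1, all with positive log2 values and a median of 0.43. Of these 5, 3 had groups that did not overlap, all with the coloboma embryos higher. Among the 632 tested genes placed on that chromosome 8.07% had such groups with coloboma higher and 8.39% with coloboma lower, and 3.01% passed the edgeR threshold. The 39 tested collagens placed on other chromosomes had a median of 0.24, with 33 positive values and 0 genes whose groups did not overlap. The 11 collagens that could not be placed had a median of 0.01, with 6 positive values. Their groups did not overlap in 1 gene, COL9A3 (2 of 2), with coloboma higher. Among all genes tested 2.27% had such groups with coloboma higher and 2.16% with coloboma lower. Alleles linked to zic2a and the eye phenotype cannot be told apart in this cross.

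The fibrillar class, which builds the banded fibrils of connective tissue, had positive values in 15 of 16 genes, with a median log2 difference of 0.31. None passed the test. Its summed level was 1354, 1810.4, 2155 and 1769 TPM in the normal and 2787, 2166, 1287, 2497 and 2387 TPM in the coloboma embryos. Of the coloboma embryos, 4 exceeded every normal embryo, while number 5 was the lowest of all 9. The collagen I genes col1a1a, col1a1b and col1a2, whose chains form one molecule in fish, had log2 differences of 0.24 ± 0.21, 0.46 ± 0.22 and 0.39 ± 0.19 (SE; edgeR adjusted p = 0.709, 0.436 and 0.471). Without coloboma 3 the values of col1a1a and col1a2 were 0.08 and 0.24, and without coloboma 5 that of col1a1a was 0.39.

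The notochord gene col2a1a measured 895, 1427, 1583 and 944 CPM in normal and 2624, 1866, 859, 1976 and 1813 CPM in coloboma embryos. Coloboma 5 was below every normal embryo, and the other 4 coloboma embryos were above them. The log2 difference of 0.59 ± 0.28 (SE) did not pass (edgeR adjusted p = 0.445). Its copy col2a1b was nearer to 0, at 0.20 ± 0.23. For col11a1a, whose product starts cartilage fibrils together with collagen II, the value was 0.28 ± 0.18, and for col27a1a, a fibrillar gene of the notochord sheath in zebrafish, 0.50 ± 0.22 (edgeR adjusted p = 0.603 and 0.421). The col11a1a value was 0.16 without coloboma 3.

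COL5A2 (2 of 2), a chain of the collagen that limits fibril width, had the smallest p of the fibrillar class. Its levels were 231, 286, 230.0 and 232 CPM in the normal and 421, 339.9, 245, 355 and 317 CPM in the coloboma embryos. Overlap came from normal 4 and coloboma 5, and the log2 difference was 0.46 ± 0.14 (SE; edgeR adjusted p = 0.236). A further chain gene of that collagen, col5a1, was at 0.40 ± 0.22, col5a3a at 0.26 ± 0.12, and col5a3b at 0.00 ± 0.21 (edgeR adjusted p = 0.512, 0.441 and 0.999). The collagen XI chains col11a2 and col11a1b stood at 0.47 ± 0.22 and 0.25 ± 0.18. The value nearest 0 among the other fibrillar types was that of col27a1b, the copy of col27a1a, at -0.03 ± 0.17. The rarest fibrillar members were COL5A3, with 798 counts in all (0.24 ± 0.21), and col5a2b, with 319 counts (0.34 ± 0.35).

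All 10 FACIT genes had positive values, with a median log2 difference of 0.27, and none passed. The collagen IX chains, which decorate collagen II fibrils, led the class. The gene col9a1 measured 332, 484, 471 and 325 CPM in the normal and 804, 604, 318, 621 and 523 CPM in the coloboma embryos. As with col2a1a, 4 coloboma embryos lay above all normal ones and number 5 lay below them. Log2 differences were 0.51 ± 0.23 for col9a1, 0.45 ± 0.21 for col9a2 and 0.38 ± 0.24 for col9a3 (SE; edgeR adjusted p = 0.428, 0.438 and 0.597). That of col9a2 was 0.28 without coloboma 3.

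Ratios between chain genes of collagen IX and of collagen I varied less than the levels. These ratios too were picked after the values were seen and were not tested. Across the 9 embryos col9a1 ran from 159 to 389 TPM, yet its TPM ratio to col9a2 stayed between 1.92 and 2.27. The TPM ratio of col9a2 to col9a3 ran from 1.32 to 1.65. The ratio of the summed col1a1a and col1a1b to col1a2 ran from 2.67 to 3.41, while col1a2 ran from 173 to 367 TPM. A low-level copy, COL9A3 (2 of 2), with 261 counts in all, averaged 0.505 ± 0.0605 and 0.741 ± 0.102 CPM without overlap (log2 0.56 ± 0.23, SE; edgeR adjusted p = 0.372). Collagens XII and XIV bind the surface of collagen I fibrils, and col12a1b, col14a1a and col12a1a were at 0.26 ± 0.14, 0.22 ± 0.12 and 0.04 ± 0.11. Values were 0.28 ± 0.18 for col16a1, 0.17 ± 0.20 for col19a1 and 0.07 ± 0.18 for COL21A1, and the groups overlapped in all of them.

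**Figure D4:**
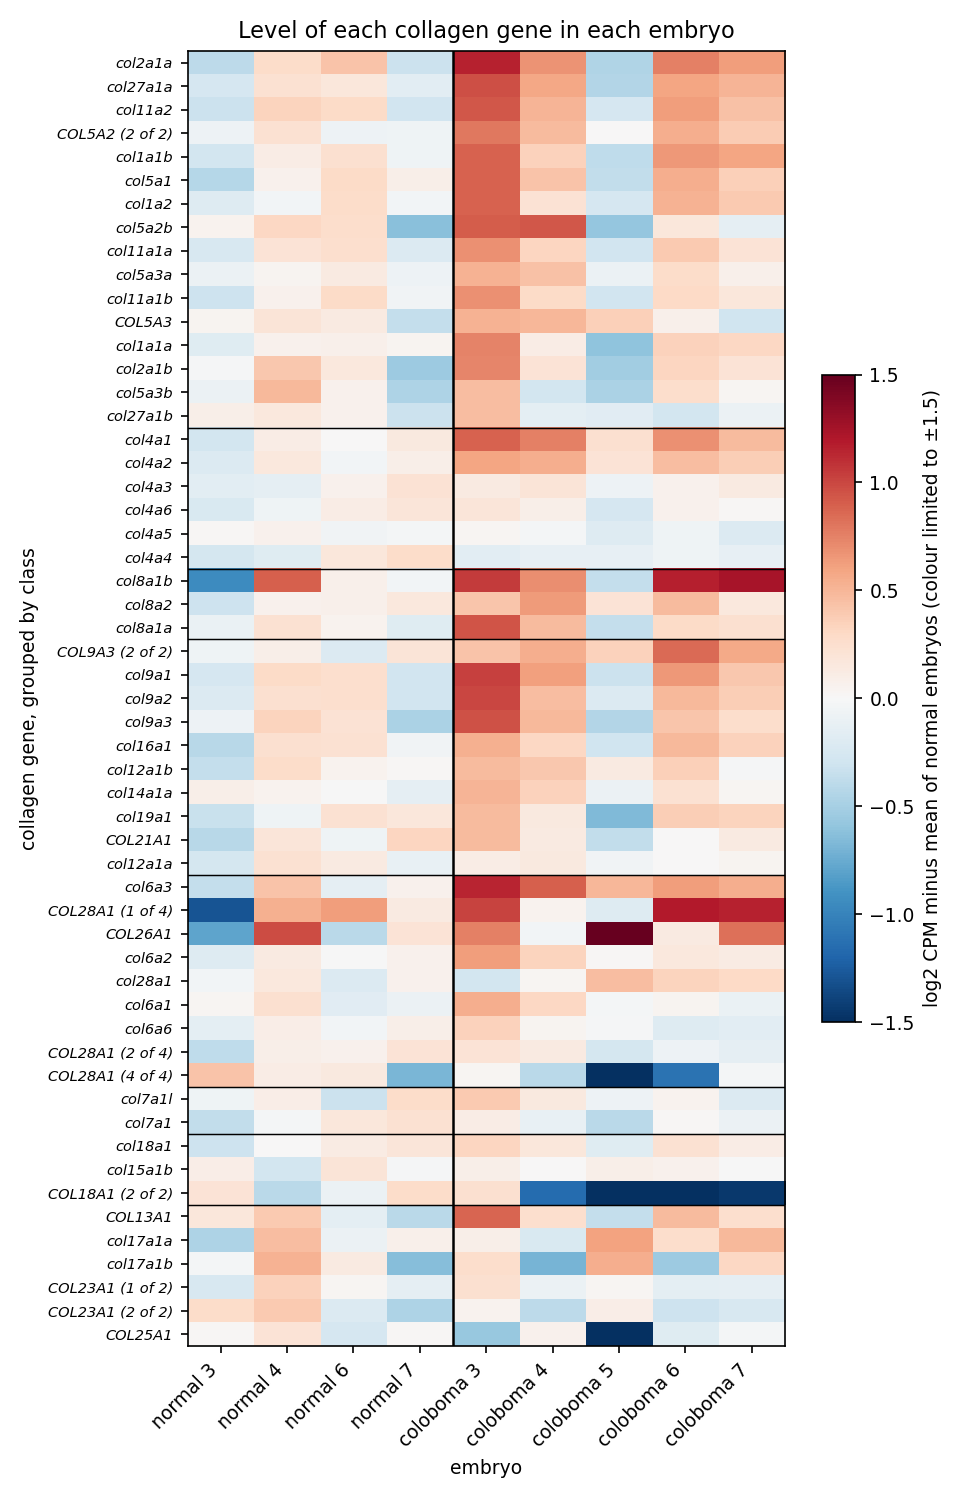
Log2 CPM of each tested collagen gene per embryo relative to the normal mean, ordered by class (black lines) and by fitted change, with colours limited to ±1.5. The column of coloboma 3 is the reddest and that of coloboma 5 is blue in most fibrillar and FACIT rows.

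The short-chain collagens of type VIII form open networks. The gene col8a1a, which zebrafish need for a straight notochord, averaged 79.9 ± 10.1 and 103 ± 32.7 CPM, with a log2 difference of 0.37 ± 0.21 (SE; edgeR adjusted p = 0.528) that was 0.19 without coloboma 3. Values for col8a2 were 6.80, 8.76, 8.90 and 9.42 CPM in the normal and 11.2, 13.1, 9.76, 11.6 and 9.38 CPM in the coloboma embryos (log2 0.38 ± 0.13, SE; edgeR adjusted p = 0.294). They overlapped by coloboma 7 alone. The largest positive value of all collagens, 0.75 ± 0.39, belonged to the rare col8a1b, with 279 counts in all (edgeR adjusted p = 0.496).

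The anchoring fibril genes col7a1 and col7a1l, whose products tie the epidermis to the dermis, were at -0.10 ± 0.13 and 0.06 ± 0.14 (log2, SE; edgeR adjusted p = 0.801 and 0.906), with no settled direction across settings. Among transmembrane collagens, the hemidesmosome gene col17a1a was at 0.23 ± 0.20, COL13A1, linked to the neuromuscular junction in mouse, at 0.32 ± 0.23, and COL25A1 at -0.33 ± 0.31. Single omissions moved these values to between 0.10 and 0.40 for col17a1a (without normal 3 and normal 4), 0.16 for COL13A1 (without coloboma 3) and -0.15 for COL25A1 (without coloboma 5). The remaining genes col17a1b, COL23A1 (1 of 2) and COL23A1 (2 of 2) had values of -0.01 ± 0.28, -0.04 ± 0.14 and -0.19 ± 0.18, so that 2 of the 6 genes of that class were positive. The abundant COL28A1 (2 of 4), of a type with von Willebrand domains, averaged 493 ± 81.8 and 482 ± 63.4 CPM, with a log2 value of -0.03 ± 0.13 (SE; edgeR adjusted p = 0.948). Its rare relative COL28A1 (4 of 4), with 199 counts in all, was at -0.54 ± 0.38, and COL28A1 (1 of 4), with 102 counts, at 0.61 ± 0.45. The moderately abundant col28a1 was at 0.18 ± 0.14, and COL26A1, with 86 counts in all, at 0.59 ± 0.49.

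Collagen XVIII lies in basement membranes and releases endostatin, and loss of the human gene causes an eye disease with retinal degeneration. The main gene, col18a1, averaged 388 ± 55.9 and 424 ± 52.6 CPM, with a log2 difference of 0.13 ± 0.13 (SE; edgeR adjusted p = 0.741), which ran from 0.03 without normal 3 to 0.20 without coloboma 5. Its relative col15a1b, of the collagen XV found beside muscle and vessel basement membranes, was at 0.04 ± 0.09. The rare COL18A1 (2 of 2), with 225 counts in all, had the largest negative value of the family, -1.08 ± 0.45 (SE; edgeR adjusted p = 0.387). It measured 0.897, 0.582, 0.728 and 0.940 CPM in the normal and 0.912, 0.349, 0.197, 0.157 and 0.284 CPM in the coloboma embryos. Coloboma 3 was within the normal range and the other 4 were below it, and without coloboma 3 the value was -1.64.

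Much of the spread in the family lay between embryos of one group. Coloboma 3 was the highest coloboma embryo in 40 of 55 collagen genes (72.7%), against 26.1% of all genes tested. Coloboma 5 was the lowest in 38 (69.1%), against 32.9%, and among the normal embryos number 3 was the lowest in 32 (58.2%), against 26.2%. The median collagen level relative to the normal mean was -0.20, 0.18, 0.08 and -0.04 (log2) in the normal and 0.52, 0.22, -0.19, 0.27 and 0.17 in the coloboma embryos. Coloboma 5 had the fewest counts and coloboma 3 the least lens signal, and the part of depth or of the low lens signal in these levels was not tested.

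Leaving out coloboma 5 raised the number of collagen genes whose groups did not overlap from 4 of 55 to 15 of 54. All were higher, against 5.39% of all genes. The unadjusted p then fell under 0.05 in 26 of 54 genes, all higher, against 8.50% that were higher among all genes. Without any other single embryo, 4 or 5 of the 54 or 55 genes had all coloboma embryos higher, against 2.84% to 4.61% of all genes. All coloboma embryos were lower in 1 of 55 genes without normal 7 (5.17% of all genes) and in 1 of 54 without coloboma 3 (3.09%). The number of genes with a higher value at an unadjusted edgeR p under 0.05 was 8 of 55 (14.5%) with all embryos, against 6.78% of all genes. It was 5 of 55 without normal 3, without coloboma 4 or without coloboma 6, against 5.01%, 5.96% and 6.06% of all genes. Without each of the remaining embryos, coloboma 5 apart, it was 6 to 11 of the 54 or 55 genes, against 4.90% to 7.10% of all genes. Without coloboma 3, the median log2 difference of the collagens was 0.16, and 38 of 54 values were positive.

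**Figure D5:**
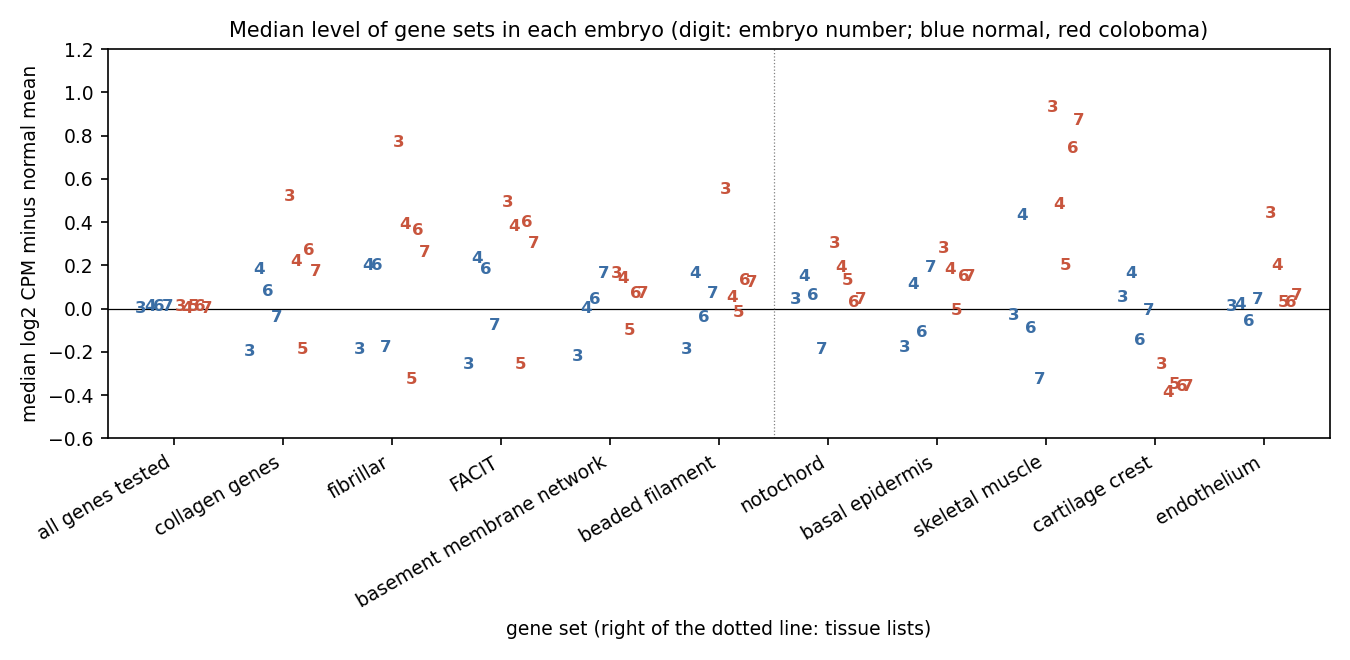
Median log2 CPM of gene sets relative to the normal mean, with each embryo drawn as its number (blue normal, red coloboma). All genes tested lie near 0, coloboma 5 is the lowest embryo in the fibrillar set at -0.33, and the groups are separate in the cartilage crest list, where coloboma embryos run from -0.39 to -0.26.

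Genes that make, secrete and crosslink collagen were then read from lists. Of 20 tested genes for folding and modifying the chains, 16 had positive values, 0 passed, and the median log2 difference was 0.07. The lysyl hydroxylase gene plod2 (0.36 ± 0.12, SE) and the prolyl hydroxylase gene p4ha1b (0.48 ± 0.19) had the smallest p of that list (edgeR adjusted p = 0.293 and 0.360). None of 13 secretion genes passed (median 0.07), with sec24c, a coat protein gene of transport vesicles, at 0.24 ± 0.12 and trappc2 at -0.40 ± 0.19. None of 9 genes for cleaving propeptides passed (median -0.11), with the protease genes tll1 at 0.27 ± 0.10 and bmp1a at -0.11 ± 0.09.

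Among 5 tested crosslinking genes 0 passed (median 0.13), and the lysyl oxidase family genes loxl1 and loxl3b were at 0.41 ± 0.18 and 0.30 ± 0.14 (edgeR adjusted p = 0.417 and 0.427). Of 26 genes for receptors and binding partners 0 passed (median 0.11). The integrin gene itga2.2 was at 0.42 ± 0.13 and the cartilage link protein gene hapln1b at 0.32 ± 0.10 (edgeR adjusted p = 0.248 and 0.250). Of 6 sox regulators, some of which switch on cartilage and notochord collagens, none passed (median 0.05). The smallest p values belonged to sox6 (0.40 ± 0.18) and sox9a (-0.19 ± 0.19).

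Tissue marker lists were set beside the collagens, since a whole embryo mixes their sources. Of 11 genes in the notochord list 0 passed and 10 were positive (median log2 difference 0.11). The sheath proteoglycan gene epyc was at 0.42 ± 0.13 and ctslb at 0.67 ± 0.25 (SE, edgeR adjusted p = 0.212 and 0.328). The list counts ctslb, but it is a hatching gland gene and no notochord marker. Its highest embryo was coloboma 5, at 6697 CPM. Of 14 basal epidermis genes 0 passed (median 0.15), with krt15 at 0.55 ± 0.21 and krt5 at 0.32 ± 0.13. Of 12 fin fold genes 0 passed and 3 were positive (median -0.14), with msxc at -0.30 ± 0.12 and hmcn1 at 0.24 ± 0.13. Of 12 endothelial genes 0 passed (median 0.18), with the receptor gene kdr at 0.45 ± 0.09 and cldn5b at 0.29 ± 0.10 (edgeR adjusted p = 0.108 and 0.300).

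Skeletal muscle had the largest median of the lists. Of 31 muscle genes 31 had positive values, against 50.1% of all genes tested, with a median of 0.68. At an unadjusted edgeR p under 0.05, 26 (83.9%) were higher and 0 lower, against 6.78% and 4.90% of all genes. Past the threshold was 1, higher in coloboma, against 0.0798% of all genes called higher. It was the fast myosin gene myhz1.2 (0.80 ± 0.13, SE; edgeR adjusted p = 0.0490), with mylpfb next at 0.85 ± 0.17. The median muscle level ran from -0.33 to 0.43 in normal and from 0.20 to 0.93 in coloboma embryos. Its lowest coloboma embryo was number 5 and its highest number 3, as for the collagens, but its lowest normal embryo was number 7. Crest lists had negative medians. Of 14 cartilage crest genes 1 was positive and 0 passed (median -0.39), with dlx4a at -0.69 ± 0.15 and prrx1b at -0.35 ± 0.08, and of 11 periocular crest genes 1 was positive and 0 passed (median -0.19), with alx1 at -1.03 ± 0.25 and alx4a at -0.50 ± 0.13. At an unadjusted edgeR p under 0.05, 9 cartilage crest genes (64.3%) and 5 periocular crest genes (45.5%) were lower, against 4.90% of all genes. In both crest lists 0 were higher, against 6.78%. Of 16 lens genes 0 passed (median 0.29), with cryaa at -1.38 ± 0.61 and foxe3 at 0.38 ± 0.24. The part of any of these tissues in the collagen levels was not tested.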

How the data were processed

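Groups came from the sample titles, 4 normal and 5 coloboma embryos, each 1 embryo and 1 library. The deposited estimated counts were whole numbers per gene symbol and embryo, and the deposited TPM values by the authors are scaled by transcript length. The submitters' processing notes name the build Zv9, Bowtie 1.1.1, RSEM 1.2.18 and CASAVA 1.8.2. No annotation is named there. The estimated counts were rounded, which changed 0 values, filtered with filterByExpr (minimum count 10), scaled by TMM and tested over 21293 genes with edgeR 4.0.16 in R 4.3.3, with no covariate. Benjamini-Hochberg adjustment ran over all genes, with a threshold of 0.05, and the steps were tested on simulated data. There the fit called 4% of genes changed by 0.5 and 64% of those changed by 1.0 on the log2 scale. Of all its calls 6.62% were false. The SE came from the log2 difference and its F value. Levels are TMM-scaled CPM or TPM, as mean ± SD. Collagen symbols, classes and lists were chosen with earlier results of these data known.

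Named collagens were the 10 with the highest TPM, the 2 with the smallest p and the highest TPM of each of 8 classes, and the 3 largest differences in each direction. Of the other lists, the 2 genes with the smallest p and any gene past the threshold were named. The other collagens named were chosen after their values were seen. Types XXVI and XXVIII were grouped with the beaded filaments. Of 219 list entries in 14 lists, 192 matched by symbol, 6 by alias, 5 with case or copy suffix ignored and 16 were not matched. Of the collagens, 43 were placed by symbol and 2 by synonym in GRCz12tu, which gave names and gene order only. Sequences are not shown here. Chi-square per degree of freedom between embryos of a group was 26.2 to 75.7, so none was a repeated library. Copies with similar sequence share reads, so single values of such genes are uncertain. Alternatives used DESeq2 1.42.0, limma 3.58.1, TPM with pseudocounts of 1 and 0.1, other filters and scalings, a replicate block and the omission of each embryo.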

Additional observations from a re-analysis of the deposited data

Results flagged for a closer look

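The CPM of the 27 named collagen genes and of zic2a and zic2b were examined in each group for an embryo far from the others, in 58 groups of values, and 3 such embryos were found, where chance alone gives about 1 in 20 groups. In COL5A2 (2 of 2), normal embryo 4 measured 286 CPM, while the other 3 normal embryos lay between 230.0 and 232. In col1a1a, normal embryo 3 measured 1378 CPM, below the other normal embryos at 1612 to 1652. In COL18A1 (2 of 2), coloboma embryo 3 measured 0.912 CPM, above the other coloboma embryos at 0.157 to 0.349, in a gene with few counts.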

How the results depend on the processing

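In 17 of 19 alternative fits 0 collagen genes passed. DESeq2 called 3 higher and the fit without coloboma embryo 5 called 2 higher, so that over single omissions the number ran from 0 to 2, and 0 were lower in any fit. The median log2 difference of the collagens stayed positive, from 0.14 with log2(TPM + 1) to 0.33 with the embryo number as a replicate block, and from 0.16 to 0.32 over single omissions. Number 5 has no normal embryo, so coloboma 5 does not enter the group difference of the block fit. The median without coloboma 5 was 0.32. The numbers share no stated origin (correlation of same-numbered embryos -0.0743 to 0.0715), and with the block 0 collagens and 9 higher and 8 lower genes passed. All genes past the threshold, 17 higher and 27 lower in the main fit, became 367 and 211 with DESeq2, 10 higher with log2(TPM + 0.1), and 8 to 165 higher and 11 to 70 lower over single omissions, the highest without coloboma 5. The collagen share of transcripts differed by 0.0582 percentage points of TPM (0.0363 to 0.0910 over single omissions) and by 0.175 points of counts, which weigh long genes more. Of 27 named collagens, 24 kept their direction. The values turned for col7a1 (0.14 and 0.15 in TPM with pseudocounts of 1 and 0.1), for col7a1l (-0.03 by library size alone, -0.05 in TPM with either pseudocount, -0.05 without normal 6, -0.03 without coloboma 3, and up to 0.16 over single omissions) and for COL28A1 (2 of 4) (0.03 with the replicate block, 0.05 without normal 7, 0.02 without coloboma 5, and down to -0.14 over single omissions). The cause was not tested.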

Other observations

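A few genes of collagen handling, chosen after their values were seen, took separate low and high levels among the embryos, with 1 or more embryos at the level of the other group. The integrin gene itga10, whose protein binds collagen on cartilage cells, measured 25.0, 26.9 and 6.11 CPM in normal embryos 4, 6 and 7 and lay between 22.8 and 25.0 CPM in normal 3. It measured 22.8, 5.67, 4.93, 5.22 and 5.71 CPM in coloboma embryos 3 to 7. Normal 7 thus lay with 4 coloboma embryos, and coloboma 3 with 3 normal embryos (log2 -1.20 ± 0.52, SE; edgeR adjusted p = 0.409). In RefSeq this gene lies on chromosome 16, away from zic2a.

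COLGALT1 (1 of 3), named for an enzyme that adds galactose to collagen chains, measured 33.4, 32.2, 30.1 and 49.9 CPM in the normal embryos. The coloboma embryos had 9.42, 37.2, 36.7, 30.9 and 8.53 CPM, so that numbers 3 and 7 were low and the other 3 were within or near the normal range (edgeR adjusted p = 0.649). The integrin gene itga11b had 0.531 to 0.703 CPM in normal embryos, while coloboma 3 had 0.540 CPM and the other coloboma embryos 0 to 0.266 CPM (log2 -1.28 ± 0.50, SE; edgeR adjusted p = 0.349). This gene has few counts, and its value of 0 CPM was that of coloboma 5, the embryo with the fewest counts.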
